A study of Mus musculus with 4 samples.

Results

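The miRNAs described here were mmu-miR-21a-5p and mmu-miR-21a-3p (the 2 arms of the mir-21a hairpin), mmu-miR-146a-5p, mmu-miR-146b-5p and mmu-miR-155-5p, named below without the mouse prefix, which cytokines are known to raise in pancreatic β-cells. They were chosen by name, 5 of the 1915 mature mouse miRNAs in the deposited count table, and all 5 were found in it. The counts came from 2 libraries of MIN6 cells, an insulin-secreting line from a mouse insulinoma, and 2 libraries of the exosomes (small vesicles released through the endosomal pathway) that were pelleted by ultracentrifugation from the medium of MIN6 cells. For all 4 libraries the line was cultured in DMEM with exosome-depleted fetal bovine serum and β-mercaptoethanol, and neither the labels nor the methods name a cytokine treatment of any library, so no value here is a response to cytokines. RNA was tailed with poly(A) for library synthesis. MIN6 is a single tumor-derived line, and nothing in the labels says that the libraries of a group came from separate cultures, so p-values measure only the spread between these libraries.

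A miRNA guides the Argonaute silencing complex to mRNAs that pair with its seed, bases 2 to 8 from its 5′ end. Interleukin-1β and tumor necrosis factor activate NF-κB in β-cells, and miR-146a and miR-146b are induced by NF-κB and in turn repress Irak1 and Traf6, the kinase and the ubiquitin ligase that carry the signal from the interleukin-1 receptor. miR-21 represses Pdcd4 and is raised by cytokines and in many tumors, and miR-155, made from the transcript Mir155hg, is a miRNA of activated lymphocytes and macrophages that represses Socs1.

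The mature sequences are shown because the members differ in how well reads can tell them apart. They were taken from RefSeq on GRCm38, in which all 5 members were found, and run 5′ to 3′ with the seed in capitals. For the members that had reads, the same sequences were given in the deposited files.

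miR-21a-5p: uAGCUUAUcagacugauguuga

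miR-21a-3p: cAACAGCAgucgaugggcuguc

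miR-146a-5p: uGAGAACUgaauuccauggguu

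miR-146b-5p: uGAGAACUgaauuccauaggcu

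miR-155-5p: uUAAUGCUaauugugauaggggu

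miR-146a-5p and miR-146b-5p have the same seed and the same first 17 bases, and differ only by G18A and U21C (the base of miR-146a-5p, the position counted from the 5′ end, the base of miR-146b-5p). A read that ends before base 18 fits both, and how such reads were assigned is not given in the sources used here. Among the 1623 listed miRNAs with a RefSeq sequence, miR-21c was the only other one that shares a seed with a member, here with miR-21a-5p, and it had 0 counts in every library. None of the 5 sequences is identical to that of another listed miRNA, and a search of 139565 transcripts in GENCODE vM21, with miRNA genes and the genes that overlap the hairpin itself left aside, found none of them.

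The hairpins lie at separate loci of GRCm38, the build (mm10) named in the submitters' processing notes. The Mir21a hairpin is at chr11:86584067-86584158 on the minus strand, inside an exon and the 3′ UTR of the protein-coding gene Vmp1, with miR-21a-5p at chr11:86584120-86584141 and miR-21a-3p at chr11:86584082-86584103. Mir146, the gene of miR-146a, is at chr11:43374397-43374461 on the minus strand and overlaps no other annotated gene, and miR-146a-5p itself is at chr11:43374435-43374456. Mir146b is at chr19:46342762-46342870 on the plus strand, in an intron of Mfsd13a, with miR-146b-5p at chr19:46342790-46342811. Mir155 is at chr16:84714140-84714204 on the plus strand, in an exon of the lincRNA Mir155hg, with miR-155-5p at chr16:84714143-84714165.

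Depth was uneven, with 2564068 to 2930217 mature counts per cell library against 47447 in exosome replicate 1 and 31409 in exosome replicate 2, so the exosome values carry the larger counting error. Levels are given as deposited RPM, the count scaled to the mature total of its library, and since all members are 22 or 23 bases long they can be compared without a correction for length. Intervals are 95% Wilson intervals, and they and the limits set by a count of 0 (3 counts of the library) cover counting error only. The label of the line was checked on β-cell miRNAs, of which miR-375-3p stood at 9113 and 9881 RPM in the cell libraries and 10686 and 7068 RPM in the exosome libraries, and 4 of 4 such miRNAs had counts in every library. The quality of the cell libraries and of the exosome libraries was checked on different instruments, so that difference and the group cannot be told apart.

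The miR-146 pair was the most abundant of the members. For miR-146a-5p, cell replicates 1 and 2 held 1996 and 1534 counts and exosome replicates 1 and 2 held 68 and 14, or 681 and 598 RPM against 1433 and 446 RPM. By RPM the 2 exosome libraries lay on either side of the cell libraries, so the groups overlapped. For miR-146b-5p the cells held 1870 and 1538 counts and the exosomes 35 and 8, or 638 and 600 RPM against 738 and 255 RPM. Its exosome libraries also lay on either side of the cell libraries, and in both miRNAs exosome replicate 1 was the highest library and replicate 2 the lowest. In bulk libraries like these, fewer vesicles with a miRNA and fewer copies per vesicle cannot be told apart.

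For miR-21a-5p the cells held 1240 and 997 counts and the exosomes 16 and 4. This was 423 and 389 RPM in the cells, with intervals of 400 to 447 and 365 to 414. In the exosomes it was 337 and 127 RPM, with intervals of 208 to 548 and 49.5 to 327. By RPM each exosome library was under each cell library, but the interval of exosome replicate 1 covered both cell values. How many of all miRNAs show that order by RPM was not counted. At the mean RPM of the cells, 19.3 and 12.8 counts would have fallen on miR-21a-5p in the exosome libraries, where 16 and 4 were recorded. With the TMM scaling of the test described below, the same figures would have been 54.2 and 27.4 counts, so the shortfall depends on the scaling.

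miR-21a-3p, the passenger arm, was nearly absent from all libraries. It had 1 count in each cell library, 0 in exosome replicate 1 and 1 in exosome replicate 2, all under the limit of 3 counts, so no fold is given. The 5p arm took 99.9% of the mature counts of the mir-21a hairpin in each cell library (1240 of 1241 and 997 of 998), 16 of 16 in exosome replicate 1 and 4 of 5 in exosome replicate 2. The interval of that last share, 37.6% to 96.4%, rests on 5 counts and shows no more than that the 5p arm was present. The other arms of the mir-146 hairpins were as rare, with 2 and 0 counts of miR-146a-3p and 1 and 1 of miR-146b-3p in the cells and 0 of either in the exosomes.

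miR-155-5p was recorded in no library, and neither was miR-155-3p. A count of 0 allows up to 1.02 and 1.17 RPM in the cell libraries, so miR-155-5p in the cells was under the level of the miR-146 pair by more than 2 orders of magnitude. In the exosome libraries it allows up to 63.2 and 95.5 RPM, a limit that is not far under the 127 RPM of miR-21a-5p in exosome replicate 2. miR-155-5p was therefore not detectable in the exosomes at this depth, and a level like that of miR-21a-3p could not have been seen there.

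**Figure D1:**
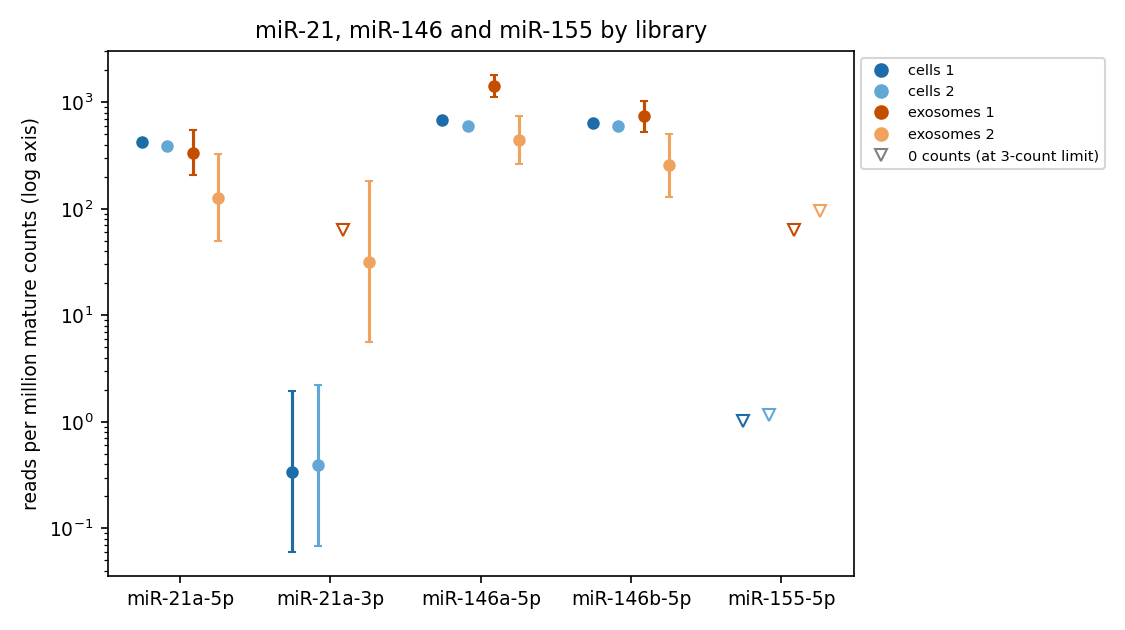
RPM (log axis) of the 5 members in the 4 libraries, with 95% Wilson intervals of the counts; open triangles mark libraries with 0 counts, drawn at the value of 3 counts. The cell libraries sit close together between 389 and 681 RPM for the 3 abundant members, while the exosome libraries are spread from 127 to 1433 RPM.

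The order of the levels was the same in both exosome libraries, miR-146a-5p above miR-146b-5p above miR-21a-5p, with miR-21a-3p and miR-155-5p at or near 0. In the cells miR-146a-5p averaged 640 ± 58.6 RPM and miR-146b-5p 619 ± 27.1 RPM (SD, n = 2), which did not differ beyond their spread, and miR-21a-5p followed at 406 ± 24.3 RPM (SD, n = 2). In the exosomes the means were 939 ± 698, 496 ± 342 and 232 ± 148 RPM (SD, n = 2), and the spread of each covered the next. By counts the 3 stood at rank 68 (miR-146a-5p), 94 (miR-146b-5p) and 158 (miR-21a-5p) of the 538 miRNAs with a count in exosome replicate 1, and at rank 105, 129 and 172 of 437 in exosome replicate 2. In the cells they held ranks 72 to 100. Together the 5 members made up 0.174% and 0.159% of a cell library, 0.251% of exosome replicate 1 and 0.0860% of exosome replicate 2.

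Ratios within a library do not depend on the scaling between libraries. Reads that hold only the first 17 bases fit both miR-146a-5p and miR-146b-5p and may have been counted for either or both. A share of the pair's counts thus need not be the true ratio of miR-146a-5p to miR-146b-5p. miR-146a-5p took 51.6% (interval 50.1 to 53.2) and 49.9% (48.2 to 51.7) of the counts of the miR-146 pair in the cells. In the exosomes it took 66.0% (56.4 to 74.4) in replicate 1, 68 of 103 counts, and 63.6% (43.0 to 80.3) in replicate 2, 14 of 22 counts. Each exosome share exceeded each cell share, by 14.0 percentage points on average, and only the interval of exosome replicate 1 stayed clear of the cells. A two-sided exact permutation test of 2 libraries against 2 gave p = 0.333, the smallest p that it can give.

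miR-21a-5p took 24.3% (23.1 to 25.5) and 24.5% (23.2 to 25.8) of the summed counts of miR-21a-5p, miR-146a-5p and miR-146b-5p in the cells. In the exosomes its share was 13.4% (8.45 to 20.7) in replicate 1 and 15.4% (6.15 to 33.5) in replicate 2. Each exosome share was under each cell share, by 9.98 percentage points on average, again with an exact two-sided permutation p of 0.333. The interval of exosome replicate 1 stayed clear of the cells and that of replicate 2 covered both cell values.

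**Figure D2:**
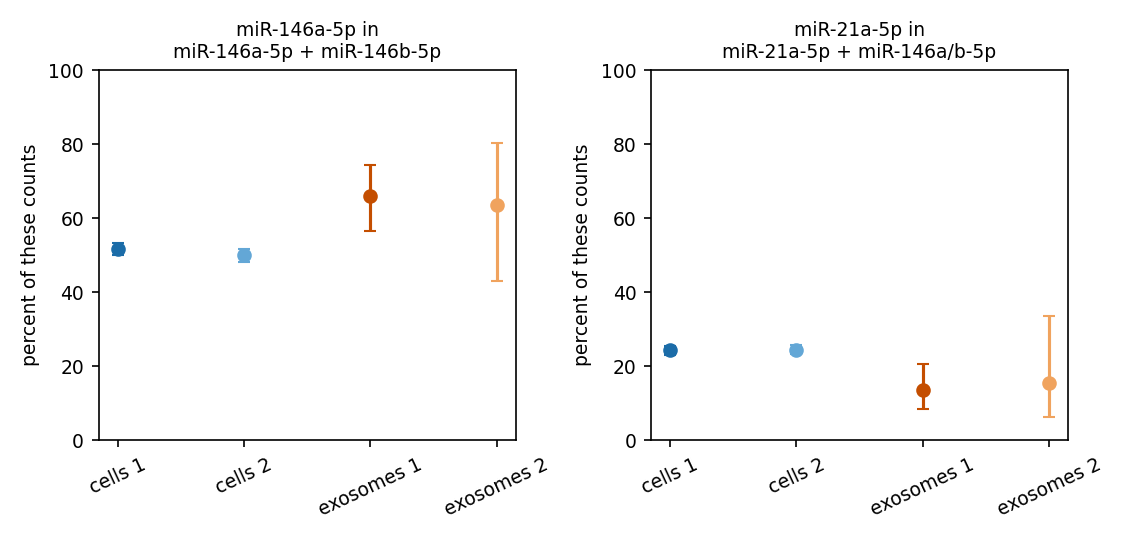
Share in percent of miR-146a-5p among the counts of the miR-146 pair (left) and of miR-21a-5p among the counts of miR-21a-5p and the miR-146 pair (right) in each library, with 95% Wilson intervals. The exosome points lie at 66.0% and 63.6% against 51.6% and 49.9% on the left and at 13.4% and 15.4% against 24.3% and 24.5% on the right.

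miR-375-3p, the best-known miRNA of the β-cell, gave a further reference within each library. miR-146a-5p stood at 7.48% and 6.05% of the counts of miR-375-3p in the cells and at 13.4% and 6.31% in the exosomes. miR-146b-5p stood at 7.0% and 6.07% in cells against 6.90% and 3.6% in exosomes, and miR-21a-5p at 4.64% and 3.94% against 3.16% and 1.80%. On this measure the groups of miR-146a-5p and of miR-146b-5p overlapped, and miR-21a-5p was lower in both exosome libraries than in both cell libraries.

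To compare exosomes with cells across all miRNAs, edgeR's quasi-likelihood test was run on the counts with TMM scaling and Benjamini-Hochberg adjustment. TMM scales on a trimmed, weighted mean of the log fold changes between libraries, so the median fold change need not be 0. Of the 1915 listed miRNAs, 438 passed the filter on low counts, and miR-21a-5p, miR-146a-5p and miR-146b-5p were the 3 members among them; miR-21a-3p and miR-155-5p had too few counts to be tested. miR-21a-5p was the 1 member that passed an adjusted p of 0.05, and it was lower in exosomes. Of the 438 tested miRNAs 29.5% were called lower, so 1 of 3 is near the background. By the same test 0 of 3 were higher, also at an unadjusted p under 0.05, against 23.7% of the tested miRNAs called higher at the adjusted threshold. By edgeR's exactTest at a fold of 2 and an unadjusted p under 0.05, miR-21a-5p and miR-146b-5p were lower, 2 of 3 against a background of 37.9%, and 0 of 3 were higher, against 27.4%.

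miR-21a-5p stood at 642 and 635 CPM (scaled counts, normalized by TMM) in cells against 189 and 93.1 in exosomes. It was 4.34-fold lower in exosomes, or -2.12 on the log2 scale with a standard error of 0.48 and a 95% interval of -3.42 to -0.82 (edgeR, adjusted p = 0.0260). The groups did not overlap. miR-146b-5p, at 968 and 980 normalized CPM in cells against 413 and 186 in exosomes, was 3.16-fold lower, or -1.66 on the log2 scale with a standard error of 0.50 (edgeR, adjusted p = 0.0507), and just missed the threshold. miR-146a-5p, at 1033 and 977 normalized CPM in cells against 802 and 326 in exosomes, stood at -0.81 on the log2 scale with a standard error of 0.53 and a 95% interval of -2.26 to 0.65 (edgeR, adjusted p = 0.252). That interval holds both an unchanged level and a decrease of the size seen for miR-146b-5p, so the test shows neither a difference nor its absence.

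In all 3 the normalized CPM of each exosome library was under that of each cell library. The same held for 51.8% of the tested miRNAs, and the opposite order for 33.3%. The median log2 fold change of the 438 tested miRNAs was -0.75, and relative to it miR-21a-5p stood at -1.37, miR-146b-5p at -0.91 and miR-146a-5p at -0.06. Of the tested miRNAs, 32.2% had a lower fold change than miR-21a-5p, 38.6% a lower one than miR-146b-5p and 49.1% a lower one than miR-146a-5p. None of the 3 lay near an end of the distribution.

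**Figure D3:**
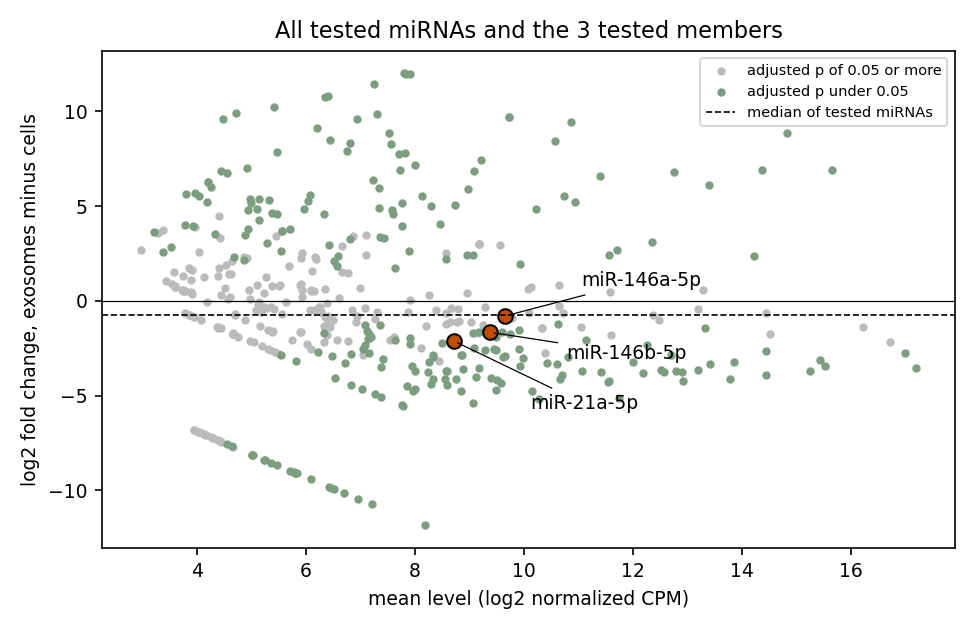
Log2 fold change of exosomes minus cells against the mean level (log2 normalized CPM) of the 438 tested miRNAs, colored by the adjusted p of the quasi-likelihood test; the dashed line is the median of -0.75. The 3 tested members, circled in black, lie at or below the median line, with miR-21a-5p (-2.12) lowest and miR-146a-5p (-0.81) highest.

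The call on miR-21a-5p depended on the scaling: with library size alone its log2 fold change was -0.75 (adjusted p = 0.341, quasi-likelihood test), where the median of all tested miRNAs was 0.61 and miR-146a-5p turned positive at 0.58. When an exosome library was left out, miR-21a-5p stood at -2.83 (without replicate 1) and -1.71 (without replicate 2) and miR-146b-5p at -2.43 and -1.19, and both passed in each case, while miR-146a-5p passed without replicate 1 (-1.67) and not without replicate 2 (-0.28). With a cell library left out, 0 of the 438 miRNAs passed by the quasi-likelihood test, against 83 higher and 76 lower at an unadjusted p under 0.05 without cell replicate 1 and 74 and 69 without cell replicate 2, and the log2 fold change of miR-21a-5p was -2.14 and -2.15 (edgeR, adjusted p = 0.191 and 0.208).

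**Figure D4:**
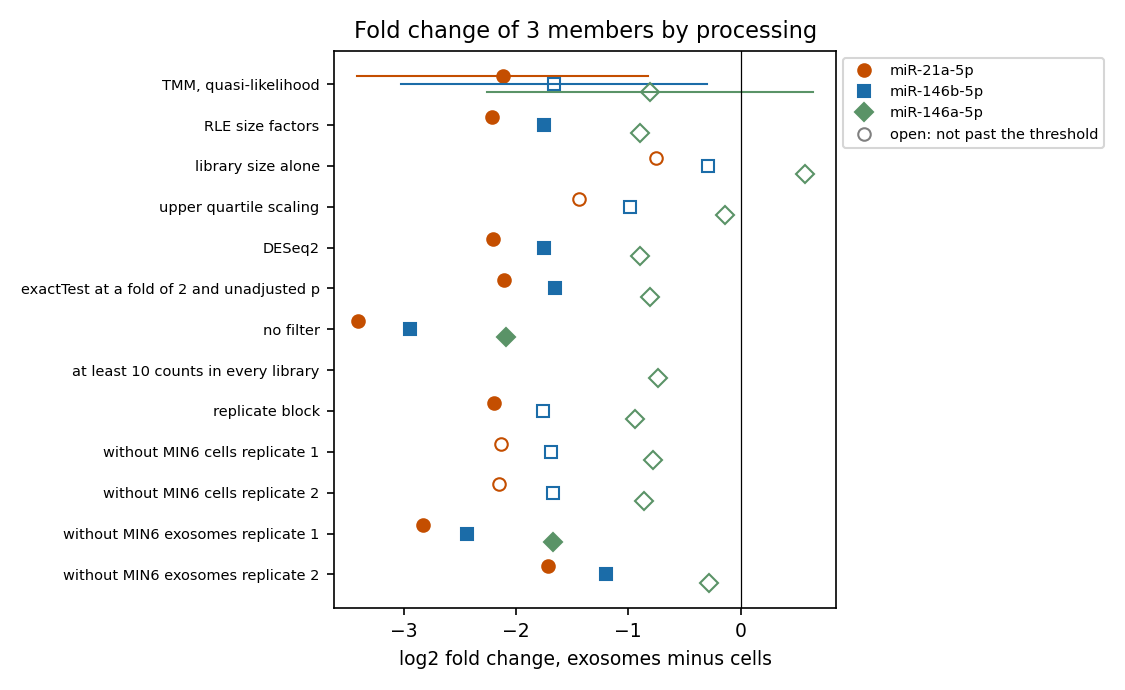
Log2 fold change of exosomes minus cells for the 3 tested members under each processing of the counts; filled symbols passed the threshold of that test, open ones did not, and lines in the first row are 95% intervals. The order miR-21a-5p, miR-146b-5p, miR-146a-5p from lowest to highest is seen in every row in which all 3 were tested, and the values shift together with the scaling.

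The 3 members shared the direction of the difference between the exosome libraries. By normalized CPM, exosome replicate 1 stood above replicate 2 by 2.46-fold for miR-146a-5p, 2.22-fold for miR-146b-5p and 2.03-fold for miR-21a-5p. Over the 208 tested miRNAs with at least 3 counts in both exosome libraries the median of this ratio was 0.930, and between 75.0% and 82.2% of them had a lower ratio than these members. The cell libraries were close for all 3, with 1033 and 977 normalized CPM for miR-146a-5p, 968 and 980 for miR-146b-5p and 642 and 635 for miR-21a-5p.

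The tested miRNAs with the values most like those of each member were found by the Euclidean distance over log2 normalized CPM (pseudocount 1) in the 4 libraries. miR-146a-5p was nearest to miR-146b-5p (distance 1.25), followed by miR-151-3p (1.32) and miR-324-5p (1.33). miR-146b-5p was nearest to miR-324-5p (0.25), which had 2140 and 1694 counts in cells against 33 and 8 in exosomes, then to miR-1306-5p (0.65) and miR-345-3p (0.78). miR-21a-5p was nearest to miR-421-3p (0.79), with 1638 and 1390 counts in cells against 19 and 3 in exosomes, then to miR-532-5p (0.81) and miR-103-3p (0.89). By counts miR-146a-5p stood at 1.07 and 0.997 times miR-146b-5p in the cells and at 1.94 and 1.75 times in the exosomes, and miR-146b-5p lay nearer to other miRNAs than to its relative.

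The hairpins of the members gave reads on their annotated arms only. On the mir-21a hairpin 0 of 1241 and 0 of 998 reads in the cells lay on neither arm, which allows a share of up to 0.242% and 0.301%. On mir-146a it was 0 of 1998 and 0 of 1534 in cells against 0 of 68 and 0 of 14 in exosomes, and on mir-146b 0 of 1871 and 0 of 1539 against 0 of 35 and 0 of 8. The few exosome reads leave wide limits, with upper limits of 4.41% for mir-146a in replicate 1 and 60.0% for mir-21a in replicate 2. Among hairpins with at least 10 reads, 54.4% and 55.0% in cells against 48.6% and 36.3% in exosomes had no read off their arms, and of all hairpin reads 32.8% and 42.0% in the exosomes lay on neither arm, against 10.9% and 9.58% in the cells.

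Other miRNAs that cytokines raise in β-cells were taken as a list of 6. All were tested, by the quasi-likelihood test 5 of 6 were lower in exosomes, against 29.5% of all tested miRNAs, and 0 were higher, also at an unadjusted p under 0.05, against 23.7%. The fitted median log2 fold change was -3.48 against -0.75 over all 438 (-3.25 against 0 where miRNAs at or under 3 counts in a group are set to their bound). It holds 3 miRNAs of the miR-29 family, which in β-cells represses the lactate transporter Mct1. miR-29a-3p, with 12320 and 13095 counts in cells against 90 and 22 in exosomes, stood at -3.21 on the log2 scale with a standard error of 0.56 (edgeR, adjusted p = 0.0158). miR-29c-3p had 2055 and 2089 counts against 6 and 3 (-4.09 on the log2 scale; edgeR, adjusted p = 0.00714). miR-29b-3p (-3.28) and miR-30b-5p (-3.68) also passed. miR-101a-3p, with 666 and 610 counts against 1 and 0, was 6.97-fold lower by normalized CPM with the exosomes set at 3 counts. miR-34a-5p, a target of p53 that interleukin-1β raises together with miR-21 and miR-146a, had 74 and 75 counts against 2 and 2, under the limit of 3 counts in both exosome libraries, and no fold can be given. The fold changes of miR-21a-5p and the miR-146 pair (-2.12 to -0.81) were nearer 0 than those of the 5 miRNAs called here. Those 5 were picked by the call, which favors large fold changes, and miR-34a-5p is left out. The difference was not tested.

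A second list held 10 miRNAs linked to Toll-like receptor and NF-κB signaling, of which 9 were tested. Of these 4 were lower, against 29.5% of all tested miRNAs, and 1 was higher, against 23.7%, with a fitted median of -2.53 (-1.33 with bounds). miR-125a-5p had 36664 and 32830 counts in cells against 227 and 56 in exosomes (-3.32 on the log2 scale; edgeR, adjusted p = 0.0158), and let-7e-5p had 69269 and 63790 against 723 and 155 (-2.65; edgeR, adjusted p = 0.0314). miR-132-3p, with 713 and 749 counts against 0 and 2, was 8.04-fold lower by normalized CPM with the exosomes set at 3 counts. Its fitted 95% interval was -7.59 to -1.70 on the log2 scale. miR-187-3p, with 364 and 287 counts against 2 and 2, was 3.53-fold lower when set in the same way. Its fitted 95% interval was -3.89 to -1.17 on the log2 scale. By RPM the bound was smaller, with 124 and 112 in cells against limits of 63.2 and 95.5 in exosomes. The miRNA that was higher was miR-223-3p, a miRNA of neutrophils and other myeloid cells. It had 1 and 0 counts in cells against 17 and 12 in exosomes, 139-fold higher with the cells set at 3 counts. miR-222-3p (-0.82; edgeR, adjusted p = 0.156) and miR-221-3p (1.56; edgeR, adjusted p = 0.0899) did not pass, nor did miR-125b-5p (-1.33). For miR-147-3p, with 35 and 20 counts in cells against 0 and 0 in exosomes, no fold can be given.

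**Figure D5:**
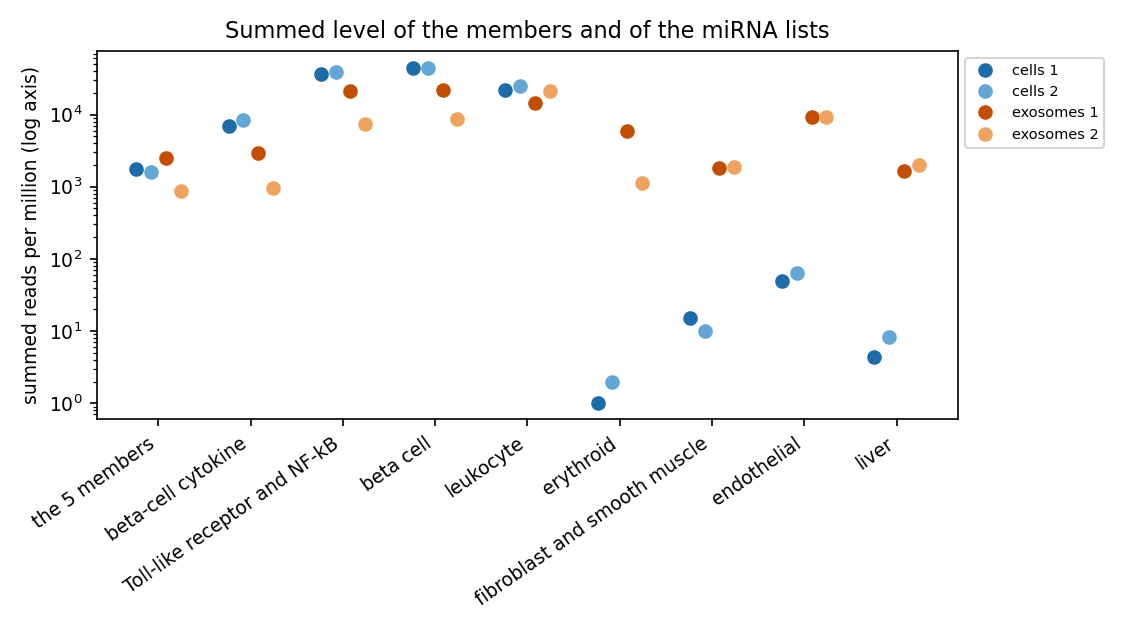
Summed RPM (log axis) of the 5 members and of each list of miRNAs in the 4 libraries. The β-cell and both signaling lists are lower in each exosome library than in each cell library, whereas the erythroid, fibroblast, endothelial and liver lists are at 63.6 RPM or less in each cell library and at 1114 RPM or more in each exosome library.

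miR-21, miR-146a and miR-155 are also made by blood cells, fibroblasts and endothelium, and miRNAs of such cells were high in the exosome libraries. Of 5 leukocyte miRNAs 4 were higher by the quasi-likelihood test, against 23.7% of all tested miRNAs. At an adjusted p under 0.05, 0 were lower, against 29.5%. The exception, miR-342-3p, stood at -1.78 on the log2 scale (edgeR, adjusted p = 0.0678), with an unadjusted p of 0.0408 in the same edgeR test. miR-142a-5p, which is made in blood cells, had 0 and 1 counts in cells against 49 and 8 in exosomes, and miR-150-5p, a lymphocyte miRNA, had 4 and 4 against 48 and 22. miR-142a-3p was at 0 in both cell libraries, and none of the 5 was at 0 in an exosome library. The summed leukocyte level was 21536 and 24468 RPM in the cells and 14543 and 21332 RPM in the exosomes, most of it from miR-342-3p, which had 63100 and 62733 counts in the cells themselves and 562 and 627 in the exosomes.

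The 4 erythroid miRNAs summed to 1.02 and 1.95 RPM in the cells and to 5986 and 1114 RPM in the exosomes. The 2 that were tested were both higher. For this and the next lists, the share of all tested miRNAs called higher was 23.7%. miR-451a and miR-144-3p were at 0 in both cell libraries. The 5 fibroblast and smooth muscle miRNAs summed to 15.0 and 10.1 RPM against 1791 and 1878 RPM, and 4 of 4 tested were higher. The 2 endothelial ones, led by miR-126a-5p, summed to 49.1 and 63.6 RPM against 9274 and 9201 RPM, both higher, and the liver miRNA miR-122-5p, also higher, stood at 4.44 and 8.19 RPM against 1665 and 1974 RPM. With TMM scaling all 4 β-cell miRNAs were called lower, against 29.5% of all tested miRNAs. Their median log2 fold change was -3.27, against -0.75 over all tested miRNAs. For miR-375-3p (-1.43, adjusted p = 0.0475 from edgeR) this depended on the scaling. Its RPM values overlapped, at 9113 and 9881 in cells against 10686 and 7068 in exosomes. By RPM miR-7a-5p, miR-7b-5p and miR-375-5p were lower in each exosome library than in each cell library. The share of all tested miRNAs in that order by RPM was not counted. Exosome replicate 1, the library with the higher levels of all 3 abundant members, also had the higher erythroid sum. The β-cell sum (21940 RPM there and 8787 in replicate 2) was higher there too. So were the sums of the β-cell cytokine list (2951 and 955 RPM) and the Toll-like receptor and NF-κB list (20929 and 7386 RPM). The fibroblast and smooth muscle sum was not (1791 and 1878 RPM). The endothelial and liver levels were alike in both. The leukocyte sum was lower in exosome replicate 1, but most of it was miR-342-3p (11845 RPM there and 19962 in replicate 2). In the same order, miR-150-5p (1012 and 700 RPM), miR-142a-5p (1033 and 255 RPM) and miR-142a-3p (295 and 31.8 RPM) were higher in replicate 1. miR-223-3p stood at 358 and 382 RPM. The part of miRNAs from such other sources in the levels of miR-21a-5p and the miR-146 pair in exosomes was not tested.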

How the data were processed

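The authors trimmed adapters (cutadapt), discarded rRNA reads and aligned the rest in turn to the genome (mm10), miRBase v21 and RNAcentral; the processing notes also name Bowtie, Bowtie2, STAR, RSEM and edgeR. The deposited read counts per mature miRNA are whole and not normalized, and the deposited RPM values equal each count over the sum of its library. Deposited counts per hairpin gave the reads on neither arm.

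Groups and replicate numbers came from the sample titles. miRNAs with a minimum count of 10 by filterByExpr were compared in edgeR 4.0.16 (R 4.3.3) by its quasi-likelihood test with TMM scaling and Benjamini-Hochberg adjustment. The test was tried on 10 sets of simulated counts with 200 of 438 miRNAs changed. Changes went up or down with equal chance, and both groups had the same dispersion of 0.2. The sets thus do not test the choice of scaling or an unequal spread of the 2 groups. It recovered a median of 47.8% of the changes, with a median of 6.83% false calls. The median absolute error of the changed miRNAs was 1.11 on the log2 scale. The statistics section of the study names edgeR's exactTest at a fold of 2 and an unadjusted p of 0.05, which was run as an alternative, as were DESeq2 1.42.0, other scalings and filters, the replicate number as a block and each library left out. The standard error of a log2 fold change is its size divided by the root of F. Where both libraries of a group held 3 counts or fewer, a fold is a bound against 3 counts per library, averaged over the group. Such a bound is taken on normalized CPM and so depends on the TMM scaling. It does not cover the spread between libraries. The 2 libraries of a group differed by more than sampling noise (chi-square of 19.5 and 58.2 per degree of freedom in cells and exosomes). Sequences came from RefSeq (GRCm38.p6) and annotation from GENCODE vM21.

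The members and lists were chosen with earlier results of these data known. The text names the 5 members, the other arms of their hairpins, miRNAs sharing a seed, the 3 nearest tested miRNAs of each tested member, miR-375-3p and members of the lists.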

Additional observations from a re-analysis of the deposited data

How the results depend on the processing

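With 2 libraries per group and 20 exosome counts on miR-21a-5p, 43 on miR-146b-5p and 82 on miR-146a-5p, depth limits every exosome value. miR-21a-5p stayed below 0 in all 11 alternatives that tested it and passed in 7, and lost the call with library size alone (-0.75) and upper quartile scaling (-1.44). miR-146b-5p stayed below 0 in 11 of 11 and passed with RLE (-1.75), DESeq2 (-1.75), the exactTest (-1.66) and no filter (-2.95). miR-146a-5p passed with no filter (-2.09), was positive with library size alone (0.58) and stayed below 0 in the other 11. Adjusted p ranged from 0.00137 to 0.341, from 0.000891 to 0.753 and from 0.00328 to 0.843 for the 3 in that order. Without a filter the median of all 1101 miRNAs was -1.67. Leaving out each library gave -2.83 to -1.71 for miR-21a-5p, -2.43 to -1.19 for miR-146b-5p and -1.67 to -0.28 for miR-146a-5p, with the lone library assumed to vary like the other group. The 5p share of mir-21a was 80.0% to 100% in the exosomes and 99.90% to 99.92% in the cells.

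The calls across all miRNAs, 104 higher and 129 lower, became 30 lower with library size alone (137 higher), 95 lower with upper quartile scaling (129 higher), 202 lower with no filter, and 37 higher and 40 lower with at least 10 counts in every library, where 100 miRNAs were tested and miR-146a-5p was the 1 member among them. Leaving out each library gave 0 to 124 higher and 0 to 168 lower. The counts of 0 from the quasi-likelihood test came without cell replicate 1, where 83 were higher and 76 lower at an unadjusted p under 0.05, and without cell replicate 2 (74 and 69). The cause was not tested.

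With the replicate number as a block, miR-21a-5p kept its call (-2.19, adjusted p = 0.0443 from edgeR), miR-146b-5p was at -1.76 and miR-146a-5p at -0.94, and 117 miRNAs were higher and 109 lower. The labels do not say that a number marks a shared culture, and deviations of same-numbered libraries correlated at 0.167 across the 438 miRNAs.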
